A study of Homo sapiens with 3 samples.

Results

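The core cardiac transcription factors described here are NKX2-5, GATA4, GATA5, GATA6, MEF2C, TBX5, TBX20, HAND1 and HAND2. They were chosen by name, and their 9 rows were read from a merged count table of 32738 genes. The table holds chambered cardiac organoids (CCOs) made from H7, an established human embryonic stem cell line, which were dissociated at day 8 (D8), day 14 (D14) and day 21 (D21) of differentiation. Monolayers of H7 cells had been differentiated by activation and then inhibition of Wnt signalling, and were dissociated and embedded in Matrigel. From then to day 14 all organoids were kept in a growth medium with thrombin, cardiotrophin-1, EGF, FGF-2, Wnt-3A and EDN1, so that the D8 and D14 libraries share it. D21 organoids had in addition spent their last week in a spinner flask with RPMI/B27, so day and medium cannot be told apart. There is 1 droplet library per day from 1 line, with no untreated or unedited control, so no test between days was possible and all intervals cover counting error only.

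These 9 proteins bind DNA and act together in the embryonic heart. NKX2-5 is a homeodomain factor of cardiac progenitors and cardiomyocytes (CMs), GATA4, GATA5 and GATA6 are zinc finger factors of heart and endoderm, and MEF2C is a MADS-box factor of muscle and of endothelium. TBX5 and TBX20 are T-box factors of the heart, and HAND1 and HAND2 are basic helix-loop-helix factors of ventricular, outflow and lateral mesoderm. The factors bind each other and the same enhancers, and sarcomere genes such as MYH6 are among their targets. All are also found outside CMs, so the values below are given for cells with and without TNNT2, the gene for cardiac troponin T.

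HAND2 is shown with its promoter because HAND2-AS1, a long noncoding RNA (lncRNA) that starts on the opposite strand next to it, had the level most like that of HAND2 in these cells. HAND1 is shown beside it because HAND2 was the gene most like HAND1. The sequences are from RefSeq (GRCh38.p14) and run 5′ to 3′ toward each gene. That of HAND2 is the 228 bases between its start and the start of HAND2-AS1, at chr4:173530230-173530457 on the minus strand. That of HAND1 is the 250 bases before its start, at chr5:154478228-154478477 on the minus strand. Capitals mark GATAA on either strand, letters within the motif that GATA factors bind.
HAND2: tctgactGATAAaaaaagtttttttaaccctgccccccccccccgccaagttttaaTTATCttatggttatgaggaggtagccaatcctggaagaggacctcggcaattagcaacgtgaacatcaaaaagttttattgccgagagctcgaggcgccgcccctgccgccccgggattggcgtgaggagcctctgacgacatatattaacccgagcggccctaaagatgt
HAND1: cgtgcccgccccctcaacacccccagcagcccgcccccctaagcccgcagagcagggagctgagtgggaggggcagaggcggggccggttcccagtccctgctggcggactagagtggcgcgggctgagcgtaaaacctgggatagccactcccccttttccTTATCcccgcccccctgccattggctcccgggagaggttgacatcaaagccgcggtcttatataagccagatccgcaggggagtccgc
The HAND2 window held 2 matches, and 18.8% of 34788 windows of that length before other starts held at least 1 match and 3.32% at least 2. The HAND1 window held 1 match, as 20.5% of windows of 250 bases did at least. A match describes letters only and was not tested as a binding site. Of the 9 genes, 6 had an entry in the promoter table. The counts themselves were made on another build (hg19), and no coordinates were moved between builds.

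Cells were kept if they had over 2000 and under 7500 genes and under 10% mitochondrial counts, which left 2657 (D8), 3585 (D14) and 1946 cells (D21), with medians of 12282 to 15316 unique molecular identifiers (UMIs) per cell. The D21 library lost most, as 4375 of its 9149 barcodes exceeded the mitochondrial limit. Between 9 and 14 barcodes were shared by any 2 of the 3 sets of kept cells, which is 0.462% to 0.527% of the smaller set. Cells were clustered without the 9 genes, TNNT2 and the other listed genes, and CM-like cells were recognised in clusters 4 (D8), 1 (D14), 5 and 17 (both D21). The first 3 of these clusters had 8 of 8 listed CM markers, such as ACTC1 and PLN, raised at least 2-fold over the rest of their library, while cluster 17 had 6. They numbered 489, 1091 and 540 in the order of the days. Outside clusters 7, 12 and 14 each cluster lay mostly in 1 library, so a cluster may be that library and not a cell type. Cluster 17 had a median of 8172 UMIs per cell beside 12975.0 in cluster 5, and all 8 members tested lay within 2-fold of each other in the 2 clusters, where 16.9% of all genes were 2-fold or more higher in cluster 17 and 4.18% lower.

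A level is the sum of a gene's UMIs over the cells of a group per 1000000 UMIs of that group (CPM), with an exact Poisson 95% interval. Ratios between groups are given on the log2 scale with an exact 95% interval, and a gene counts as different when its ratio is 2-fold or more and its level is at least 10 CPM in 1 of the groups. A gene that reaches 10 CPM in only 1 of the groups can thus be called only higher there or within 2-fold. The shares of all genes follow the same rule. Shares of cells are of cells thinned at random to 4000 UMIs, with exact Clopper-Pearson 95% intervals. In pooled cells, fewer expressing cells and less RNA per cell cannot be told apart from the level alone.

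In CM-like cells NKX2-5 was about 2-fold higher at D14 than at D8, and MEF2C was far lower at D21 than at D14. NKX2-5 was at 266 CPM (255 to 278) in CM-like cells of D8, 533 CPM (521 to 545) at D14 and 377 CPM (364 to 392) at D21. The D14 level was thus the highest, and the D8 level the lowest. The share of CM-like cells with an NKX2-5 UMI was 59.7% at D8, 82.9% at D14 and 74.8% at D21. In endodermal cells, used below to gauge free RNA, it was 21.3%, 12.0% and 5.88% at the same 4000 UMIs. Their NKX2-5 level at D8 and D14 lay above that computed below from CM RNA, so these 2 shares are not a measure of free CM RNA alone. MEF2C was at 609.8 CPM (593 to 627) at D8, 467 CPM (456 to 478) at D14 and 72.7 CPM (66.6 to 79.1) at D21, the lowest of the 3 days by far. Its share of CM-like cells was 86.1%, 76.8% and 23.7%, beside 4.65%, 4.33% and 0.980% of the endodermal cells. At D21, MEF2C was 6.43-fold lower than at D14 in CM-like cells (log2 ratio -2.68, -2.81 to -2.56). Endothelial-like cells, in which MEF2C is a known regulator, held it at 585 CPM in 47 cells of D8, 512 CPM in 53 cells of D14 and 292 CPM in 39 cells of D21. Within the D21 library the endothelial-like level was above that of every other cluster, and the intervals did not overlap.

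**Figure D1:**
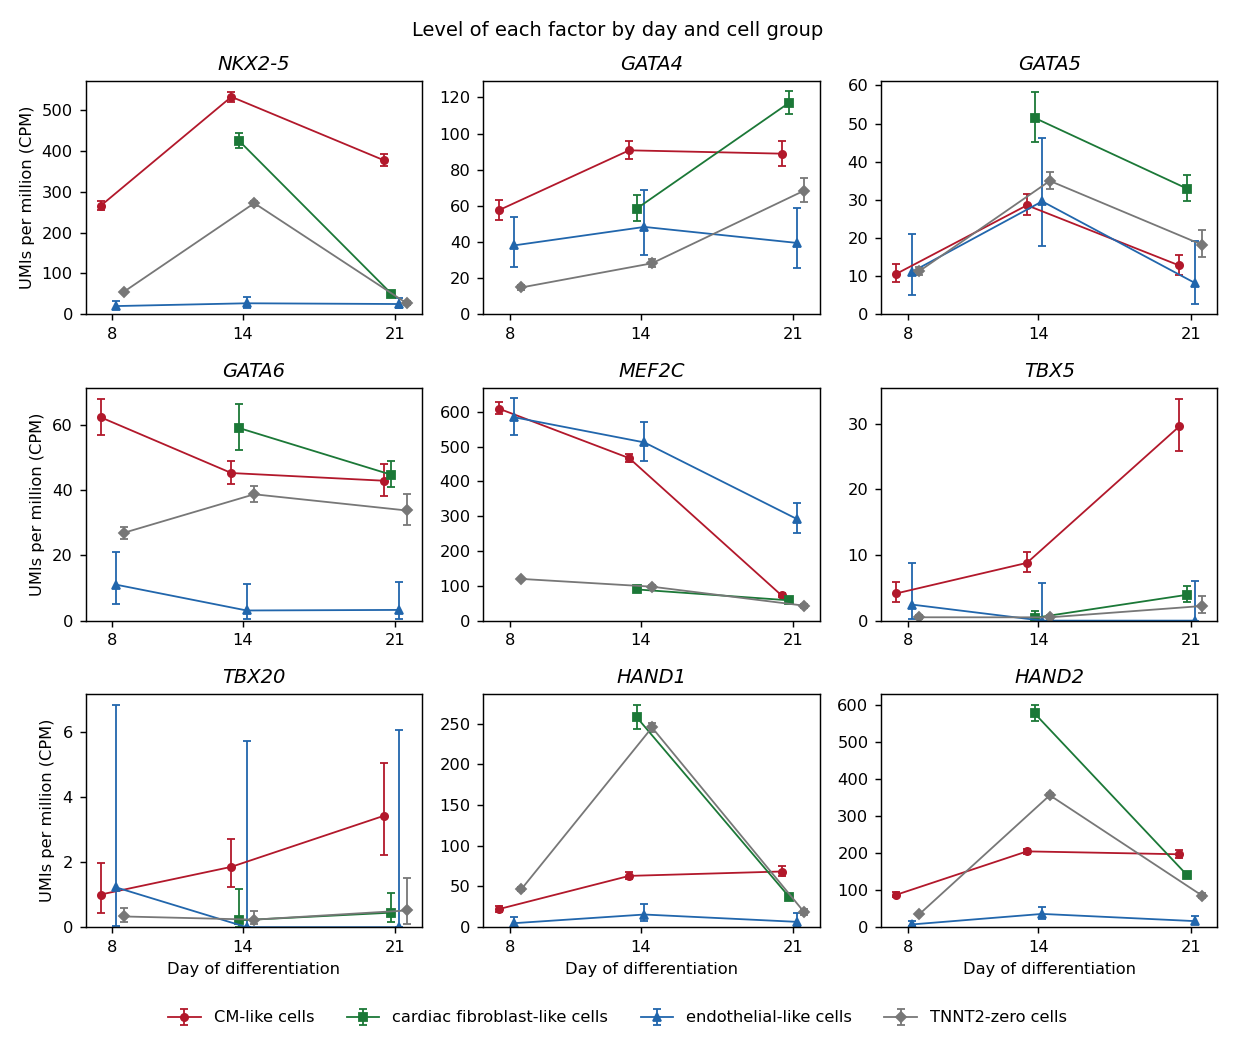
Level of each of the 9 factors (y axis, CPM, linear from 0) against day of differentiation (x axis) in CM-like, cardiac fibroblast-like, endothelial-like and TNNT2-zero cells, with points for 1 library each and bars for exact Poisson 95% intervals. In CM-like cells MEF2C stood at 609.8, 467 and 72.7 CPM while TBX5 stood at 4.15, 8.81 and 29.6 CPM, and HAND1 outside CMs was highest at D14.

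The GATA genes differed among themselves. GATA4 was at 57.5 CPM (52.3 to 63.0) in CM-like cells of D8, 90.7 CPM (85.9 to 95.7) at D14 and 88.9 CPM (82.1 to 96.0) at D21, the last 2 with overlapping intervals. GATA5 was at 10.6 CPM (8.42 to 13.1), 28.6 CPM (25.9 to 31.4) and 12.8 CPM (10.3 to 15.6), so only its D14 level stood apart. GATA6 was at 62.4 CPM (57.0 to 68.1), 45.3 CPM (41.9 to 48.9) and 42.9 CPM (38.3 to 47.9), highest at D8 and with overlapping intervals at D14 and D21. GATA4 had a UMI in 19.6%, 29.5% and 27.8% of CM-like cells, GATA5 in 4.50%, 11.5% and 4.44%, and GATA6 in 21.3%, 14.9% and 18.1%. GATA6 was thus the GATA gene with its highest CM-like level and share at D8.

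TBX5, a gene of the atria and left ventricle, was the only member that was 2-fold or more higher in CM-like cells of D21 than of D14. It reached 10 CPM only at D21, so it could not be called lower. Its level was 4.15 CPM (2.86 to 5.83, from 33 UMIs) at D8, 8.81 CPM (7.35 to 10.5) at D14 and 29.6 CPM (25.8 to 33.8) at D21, and no 2 of these intervals overlapped. In the same order, 1.64%, 3.57% and 10.0% of CM-like cells had a TBX5 UMI. TBX20 had few UMIs, with 166 UMIs among all 17327 barcodes and 8, 27 and 25 UMIs in the CM-like cells of the 3 days. Its levels of 1.01, 1.86 and 3.43 CPM were under the 10 CPM needed for a comparison. A difference between D8 and D14 was not detectable at this depth (log2 ratio 0.89, -0.29 to 2.23), and that between D14 and D21 lay just above counting error (0.88, 0.04 to 1.72).

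HAND1, known from the early left ventricle and extra-embryonic mesoderm, and HAND2, known from the right ventricle and outflow tract, both had their lowest CM-like level at D8. HAND1 was at 22.1 CPM (19.0 to 25.7), 63.0 CPM (59.0 to 67.2) and 68.4 CPM (62.6 to 74.7), with overlapping intervals at D14 and D21. HAND2 was at 87.5 CPM (81.1 to 94.3), 205 CPM (197 to 212) and 197 CPM (187 to 207), again with overlapping intervals at the last 2 days.

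In counts over the list, 4 of the 7 members tested were 2-fold or more higher in CM-like cells of D14 than of D8 (NKX2-5, GATA5, HAND1 and HAND2), against 10.6% of all genes tested, and 0 were lower, against 2.35%. NKX2-5 lay at the limit itself, with a log2 ratio of 1.00 (0.93 to 1.07), and fell under it with TMM factors or the median of ratios. From D14 to D21, 1 of 8 was higher (TBX5; 5.11% of all genes) and 2 were lower (GATA5 and MEF2C; 15.2% of all genes). With TMM factors or the median of ratios 1 was lower, as GATA5 had log2 ratios of -0.94 and -0.89. The members' median log2 ratio was 1.00 for the first step and -0.07 for the second, beside 0.05 and -0.18 over all genes tested. With clusters at resolution 1.2 the count higher at D14 was 2. In cells chosen as TNNT2-high in place of clusters, 3 of 7 members were higher at D14 (10.6% of all genes) and 0 lower (2.07%), and at D21 1 of 8 was higher (4.74%) and 1 lower (MEF2C; 11.5%). In them NKX2-5 was 1.92-fold higher at D14 and GATA5 1.87-fold lower at D21, both under the 2-fold limit.

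Over all cells of a day, more members differed from D14 in both directions of time. From D8 to D14, 5 of 7 members were 2-fold or more higher (8.95% of all genes) and 0 lower (1.63%), led by HAND2 with 46.1 CPM at D8 and 318 CPM at D14 (log2 ratio 2.78, 2.72 to 2.85). GATA4 lay at the limit (log2 ratio 1.02, 0.92 to 1.13), and under it with TMM factors or the median of ratios. From D14 to D21, 1 of 8 was higher (5.80% of all genes) and 4 were lower (10.1%), the last being NKX2-5, MEF2C, HAND1 and HAND2. HAND1 had 194 CPM in the D14 library but 36.5 CPM in that of D21 (log2 ratio -2.41, -2.50 to -2.32). These sums change with the makeup of each library as well as with the level in a cell type. The median log2 ratio of all genes tested was -0.20 from D14 to D21, and TMM scaling moved the number higher at D21 from 1 to 2.

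**Figure D2:**
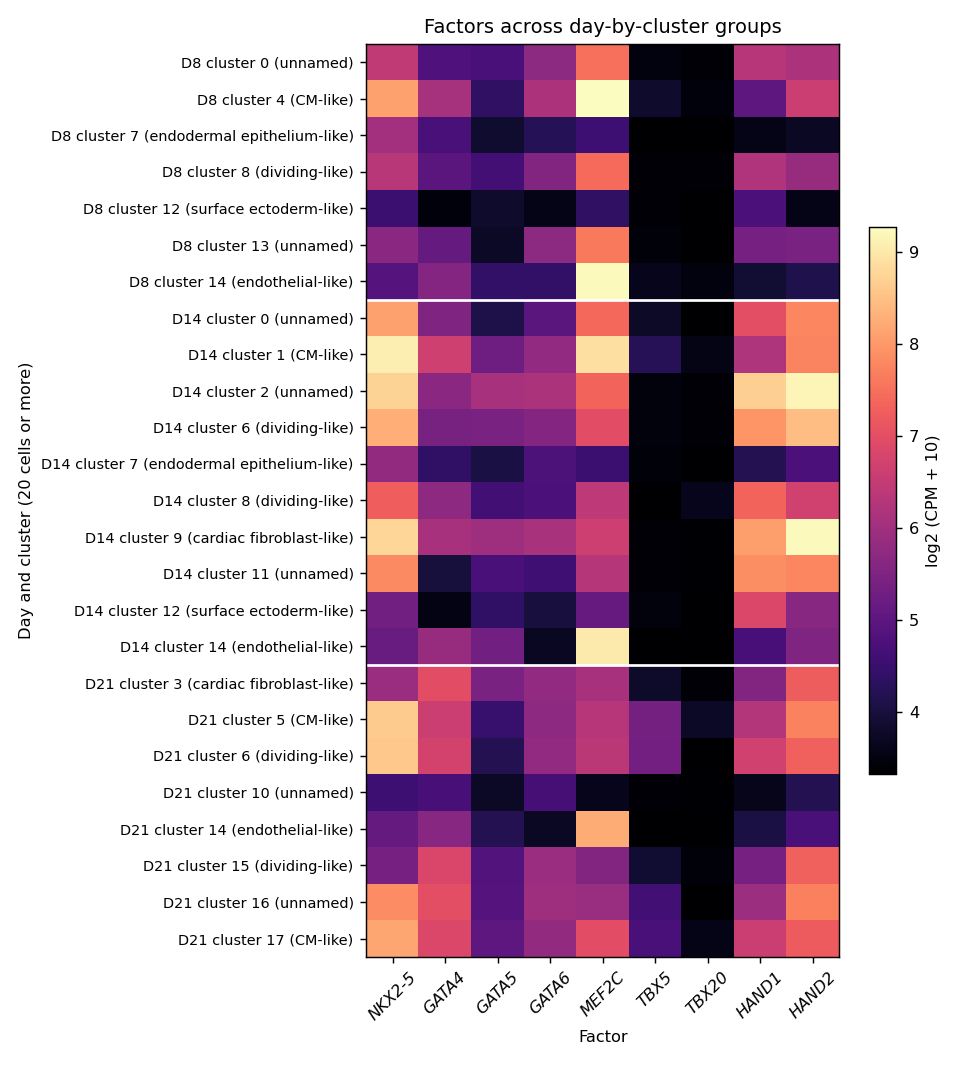
Level of each factor (columns) as log2 of CPM plus 10 in 25 groups of 20 cells or more by day and cluster (rows; white lines part the days). NKX2-5, HAND1 and HAND2 are bright together in the D14 rows of clusters 2, 6 and 9, MEF2C is brightest in the CM-like and endothelial-like rows of D8 and D14, and TBX5 is highest in the D21 rows of clusters 5 and 6 (30.7 and 30.1 CPM).

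At D8, cluster 0, with 1076 cells and no name, had EBF2 and TSHZ2 among its leading genes. Against CM-like cells, 1 of 7 members was higher in it (HAND1; 2.56% of all genes) and 3 were lower (NKX2-5, GATA4 and MEF2C; 4.80%). HAND1 had 69.4 CPM there beside 22.1 CPM in CM-like cells (log2 ratio 1.65, 1.42 to 1.89), and NKX2-5 had 77.0 and 266 CPM.

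At D14 several members were as high outside CM-like cells as within them. Cluster 2, with 1042 cells and no name, had 2 of 8 fibroblast markers (COL3A1 and MFAP4), none of the CM markers past the naming limit, and TNNT2 at 177 CPM beside 2922 CPM in CM-like cells. NKX2-5 was at 412 CPM (400.4 to 424) in this cluster, GATA6 at 60.6 CPM (56.2 to 65.2) and GATA5 at 58.5 CPM (54.2 to 63.1). HAND1 was at 402 CPM (391 to 414) and HAND2 at 568 CPM (554 to 582). Against CM-like cells of the same library, 3 of 7 members were 2-fold or more higher in cluster 2 (GATA5, HAND1 and HAND2; 4.44% of all genes) and 2 were lower (GATA4 and MEF2C; 8.48%). NKX2-5 had a log2 ratio of only -0.37 (-0.42 to -0.32). The target genes NPPA, MYH6, SLC8A1, SMPX and SMYD1 were each 2-fold or more lower in cluster 2, which had no CM marker past the naming limit. NPPA, which encodes atrial natriuretic peptide, was at 5.44 CPM beside 170.7 CPM in CM-like cells (log2 ratio -4.97, -5.36 to -4.61). MYH6, which encodes a cardiac myosin heavy chain, was at 379 and 4082 CPM (log2 ratio -3.43, -3.47 to -3.38). SLC8A1, SMPX and SMYD1 had log2 ratios of -3.25, -3.05 and -3.57. ISL1, a factor of cardiac progenitors, had 201 CPM there beside 80.0 CPM in CM-like cells, and MYOCD, a coactivator of muscle genes, was at 21.3 and 161 CPM.

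Cardiac fibroblast-like cells of D14, with 4 of 8 markers in the cluster that holds most of them, also held these factors. They had NKX2-5 at 425 CPM, HAND1 at 258 CPM and HAND2 at 577 CPM. Those of D21, from a cluster with 8 of 8 markers, held NKX2-5 at 49.9 CPM (45.9 to 54.3), HAND1 at 37.2 CPM (33.7 to 41.0) and HAND2 at 141 CPM (134 to 148). These 3 were the members 2-fold or more lower at D21 in this class (3 of 7; 9.69% of all genes), and GATA4 was the 1 member higher (4.89% of all genes), with 58.5 CPM at D14 and 117 CPM at D21 (log2 ratio 1.00, 0.81 to 1.19, at the 2-fold limit). The classes of the 2 days come from different clusters, so the cells compared need not be the same type. Within D21, fibroblast-like cells had GATA4 at 1.32-fold the CM-like level and GATA6 at 44.7 CPM beside 42.9 CPM, with overlapping intervals. Relative to CM-like cells of D21, 1 of 8 members was higher in them (GATA5; 15.1% of all genes) and 2 were lower (NKX2-5 and TBX5; 14.3%), so these counts lie near the background.

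The course by day was also read in dividing-like cells and in cells without TNNT2. The dividing-like cells came from cluster 8 at D8, mostly from cluster 6 at D14 and mostly from cluster 15 at D21, and 4.58%, 9.13% and 22.7% of them were TNNT2-high by the gate given below. In dividing-like cells 4 of 7 members were 2-fold or more higher at D14 than at D8 (NKX2-5, GATA5, HAND1 and HAND2; 6.77% of all genes) and 0 lower (2.09%), the same 4 as in CM-like cells. At D21, 1 of 7 was higher than at D14 (GATA4; 5.46%) and 4 were lower (NKX2-5, MEF2C, HAND1 and HAND2; 8.42%). NKX2-5 stood at 70.3, 289 and 99.4 CPM there. In cells with no TNNT2 UMI after thinning, 4 of 7 were higher at D14 than at D8 (7.54% of all genes) and 0 lower (1.88%). At D21, 1 of 7 was higher than at D14 (GATA4; 7.32%) and 4 were lower (13.8%), HAND1 having 245 and then 18.2 CPM, which is 13.5-fold lower (log2 ratio -3.75, -4.05 to -3.48). In surface ectoderm-like cells 5 of 5 members tested were higher at D14 than at D8 (9.27% of all genes) and 0 lower (9.59%), with HAND1 at 17.1 CPM first and 106 CPM later (log2 ratio 2.63, 2.25 to 3.01). HAND2 (1.96 and 40.1 CPM) and GATA5 (4.12 and 10.7 CPM) reached 10 CPM in these cells only at D14, so neither could be called lower. TNNT2 was also higher in them at D14, with 66.1 CPM beside 21.6 CPM at D8. The part of RNA from other cells in these differences was not tested. In endodermal epithelium-like cells 2 of 5 were higher (GATA6 and HAND2; 5.89%) and 0 lower (3.81%). GATA6 (8.57 and 17.6 CPM) and HAND2 (3.16 and 16.7 CPM) both reached 10 CPM there only at D14. Endothelial-like cells gave few UMIs for most members. From D8 to D14, 3 of 7 were higher in them (GATA5, HAND1 and HAND2; 7.51%) and 1 lower (GATA6; 11.2%), and from D14 to D21, 0 of 6 were higher (16.9%) and 3 lower (GATA5, HAND1 and HAND2; 15.1%). Of these 7 differences, the interval excluded 0 for GATA5 in both steps and for HAND2 in the first. HAND1 reached 10 CPM in endothelial-like cells only at D14. In the first step HAND2 did so only at D14 and GATA6 only at D8, and in the second GATA5 only at D14.

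Free RNA can give UMIs of a gene to droplets whose cell does not express it, and TNNT2 in cells of endodermal type was used as a gauge of CM RNA. The source of these UMIs was not tested. TNNT2 in these cells was 3.20% of its CM-like level at D8, 2.34% at D14 and 3.50% at D21. If all CM RNA were present at that share, it would give 8.50, 12.4 and 13.2 CPM of NKX2-5 on the 3 days. Cluster 7, which is endodermal epithelium-like, held 55.7 CPM (50.1 to 61.6) at D8 and 46.0 CPM (40.2 to 52.5) at D14, so NKX2-5 was above the computed level on both days. At D21, cluster 10, with 8 of 8 hepatic and 7 of 8 endodermal epithelium markers and therefore no name, held 13.8 CPM (11.3 to 16.8), an interval that holds the 13.2 CPM. MEF2C was below the level computed in this way at D8 (13.7 beside 19.5 CPM), and the computed level lay within its interval at D14 and D21. HAND1 and HAND2 in cluster 7 of D14 were at 8.16 and 16.7 CPM beside 1.47 and 4.78 CPM, but this gauge covers only RNA from CMs, and other cells of D14 held more of both. The gauge also leaves out NKX2-5 RNA from other cells of D14, such as clusters 9 and 2 (432 and 412 CPM). The D21 fibroblast-like level of NKX2-5, 49.9 CPM, lay above the 13.8 CPM of cluster 10, and the D14 level of cluster 2 lay far above the 46.0 CPM of cluster 7. However, the D21 fibroblast-like cells also held more TNNT2 than cluster 10 (499 beside 310 CPM). By the gate given below, 8.37% of them were TNNT2-high, so cluster 10 may understate CM RNA in them. GATA4, GATA5 and GATA6 are also made by endoderm, so surface ectoderm-like cells (cluster 12) were read for them. They held GATA4 at 0.981 CPM (0.319 to 2.29) at D8 and 1.69 CPM (0.349 to 4.95) at D14. GATA5 was at 4.12 CPM (2.55 to 6.30) and 10.7 CPM (6.46 to 16.8) in them, and GATA6 at 1.96 CPM (0.941 to 3.61) and 6.21 CPM (3.10 to 11.1). The CM-like levels of the 3 genes lay above these on both days.

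The order of groups differed by gene. For NKX2-5, cluster 1 (CM-like, D14) came first, apart from the next group, cluster 9 (fibroblast-like, D14), which overlapped with cluster 2. For HAND2, clusters 9 and 2 came first with 582 and 568 CPM and overlapping intervals. For HAND1, cluster 2 stood alone at 402 CPM ahead of cluster 9 at 262 CPM. For MEF2C, cluster 4 (CM-like, D8) at 609.8 CPM and the endothelial-like cells of D8 at 585 CPM overlapped. For GATA4, cluster 16, an unnamed D21 group of 59 cells, and the D21 fibroblast-like cells led at 119 and 117 CPM with overlapping intervals. Clusters 6, 15 and 17 of D21 overlapped with cluster 16 as well. All 59 cells of cluster 16 had a TNNT2 UMI after thinning (4565 CPM before it), and MYL2 and LDB3 were among its leading genes. None of the listed CM markers passed the naming limit in it. For GATA5 the first groups were clusters 2 and 9, at 58.5 and 52.1 CPM, and for GATA6 they were cluster 4 at 62.4 CPM and cluster 2 at 60.6 CPM, in each case with overlap. For GATA6, cluster 9 of D14 and clusters 6, 15, 16 and 17 of D21 also overlapped with cluster 4. For TBX5, clusters 5 and 6 of D21 came first with 30.7 and 30.1 CPM and overlapping intervals, and cluster 17 overlapped with both.

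To compare cells with and without TNNT2 in the same library, cells thinned to 4000 UMIs were split into TNNT2-high (5 UMIs or more), TNNT2-low (1 to 4) and TNNT2-zero cells. There were 315 high and 1849 zero cells at D8, 897 and 1749 at D14, and 710 and 311 at D21. The TNNT2-low cells, which the ratios below leave out, numbered 493, 939 and 925, or 18.6%, 26.2% and 47.5% of kept cells. At D21 they held 575 of the 824 fibroblast-like cells (69.8%), so the gate did not part CMs from other cells. The TNNT2-zero cells of D14 lay mostly in unnamed clusters (876 cells), dividing-like cells (315) and fibroblast-like cells (245), and those of D21 in fibroblast-like (180) and unnamed clusters (83). At D21, TNNT2-zero cells still held TNNT2 at 219 CPM before thinning, and only 21 cells were free of it without thinning. TNNT2-high cells had medians of 3.03%, 5.41% and 8.25% mitochondrial UMIs at D8, D14 and D21, beside 1.92%, 2.65% and 4.05% in TNNT2-zero cells, and the part of this in the ratios below was not tested.

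At D8, 5 of 7 members tested were 2-fold or more higher in TNNT2-high cells (6.63% of all genes) and 1 was lower (5.79%). NKX2-5 was at 272 CPM in high and 54.3 CPM in zero cells (log2 ratio 2.32, 2.22 to 2.43). MEF2C was at 585 and 119.9 CPM, GATA4 at 71.3 and 14.7 CPM, GATA6 at 64.3 and 26.9 CPM, and HAND2 at 75.1 and 34.8 CPM. The exception was HAND1, at 20.6 CPM in high and 46.8 CPM in zero cells (log2 ratio -1.18, -1.48 to -0.90). With endodermal and ectodermal clusters left out, the number higher was 3. The number lower was 0 with a gate of 1 TNNT2 UMI and with a mitochondrial limit of 5%.

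At D14, 2 of 7 were higher in TNNT2-high cells (GATA4 and MEF2C; 11.0% of all genes) and 2 were lower (HAND1 and HAND2; 8.23%). HAND1 was at 51.4 CPM in high and 245 CPM in zero cells (log2 ratio -2.26, -2.38 to -2.14), and HAND2 at 161 and 356 CPM (log2 ratio -1.14, -1.21 to -1.07). NKX2-5 was at 523 and 272 CPM, short of 2-fold. The number lower was 1 with a mitochondrial limit of 5%, when cells were thinned to 8000 UMIs and without thinning, and 0 with a gate of 1 TNNT2 UMI.

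At D21, 4 of 8 were higher in TNNT2-high cells (NKX2-5, TBX5, HAND1 and HAND2; 13.9% of all genes) and 0 lower (12.4%). NKX2-5 was at 333 CPM in high and 26.6 CPM in zero cells (log2 ratio 3.65, 3.42 to 3.89), the widest of its 3 gaps. TBX5 was at 25.8 and 2.23 CPM (log2 ratio 3.53, 2.73 to 4.46). HAND1 was at 63.9 and 18.2 CPM and HAND2 at 189 and 85.1 CPM, so both lay higher with TNNT2 at D21 although they had lain higher without it at D14. The zero cells of D21 included cells of cluster 10, which held HAND1 at 2.26, HAND2 at 8.25 and NKX2-5 at 13.8 CPM. In 1 alternative cluster 10 was left out together with the endodermal and ectodermal clusters, and 230 zero cells of D21 remained. The ratios of single members in that alternative are not given here. Between CM-like and fibroblast-like cells of D21, HAND1 (68.4 and 37.2 CPM) and HAND2 (197 and 141 CPM) lay within 2-fold. MEF2C, which was 4.48-fold higher with TNNT2 at D14, was at 69.3 and 42.9 CPM. GATA5 stayed within 2-fold on each of the 3 days. Without thinning, with 21 zero cells, 1 member was higher and 2 lower, and TBX5 turned over (log2 ratio -0.18).

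**Figure D3:**
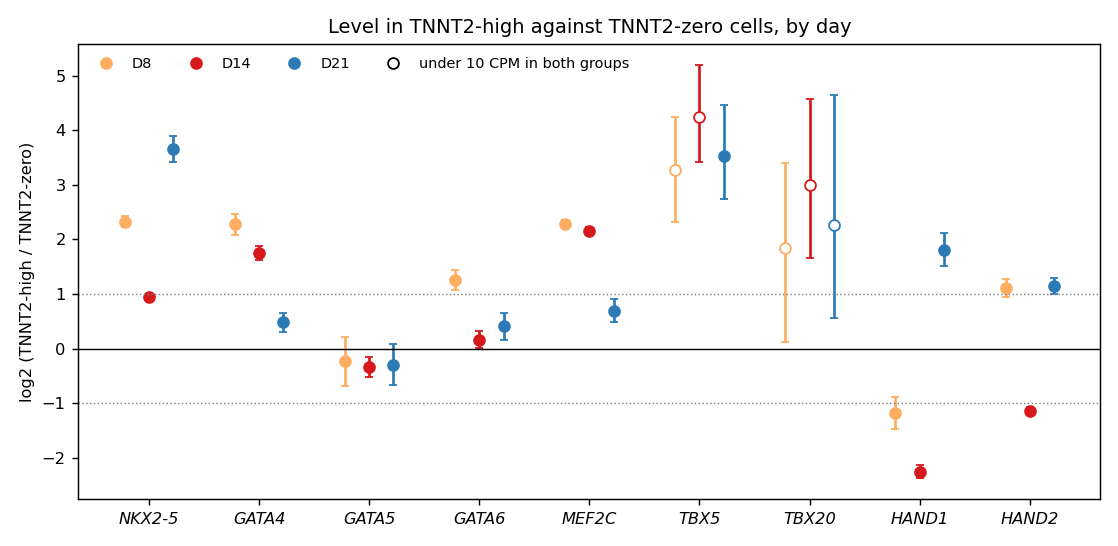
Log2 ratio of TNNT2-high to TNNT2-zero cells (y axis) for each factor (x axis) at D8, D14 and D21, with exact 95% intervals and dotted lines at 2-fold. Open circles mark levels under 10 CPM in both groups. HAND1 lies at -1.18, -2.26 and 1.81 and HAND2 at 1.11, -1.14 and 1.15, while GATA5 stays between the dotted lines.

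Within dividing-like cells HAND1 lay in the same direction before D21, though the D8 TNNT2-high group was small, with 245650 UMIs in all. There it was at 28.5 CPM in 16 TNNT2-high and 72.9 CPM in 266 TNNT2-zero cells at D8, and at 53.1 and 260 CPM at D14. The 16 cells are fewer than the 20 asked of groups elsewhere. At D21 the 39 high and 36 zero dividing-like cells had HAND1 at 61.3 and 39.8 CPM, and HAND2 at 145 and 158 CPM, so that the D21 gap of HAND2 was not seen among dividing cells. NKX2-5 in the same D21 cells was at 323 and 35.4 CPM.

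The mitochondrial limit removed more TNNT2-high barcodes at D21 than it kept, so the members were read in those as well. The 1481 TNNT2-high barcodes of D21 with 10 to 20% mitochondrial UMIs held all 8 members tested within 2-fold of the 710 kept cells, where 0.0600% of all genes were 2-fold or more higher and 1.72% lower. NKX2-5 was at 308 CPM beside 333 CPM, MEF2C at 74.1 beside 69.3 CPM, and TBX5 at 31.2 beside 25.8 CPM. At D14, 148 such barcodes also held the 7 members tested within 2-fold (0.463% of all genes higher and 1.36% lower).

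Co-detection was counted as the number of the 9 members with a UMI in a cell thinned to 4000 UMIs. At D8, 38.4% of TNNT2-high cells (33.0 to 44.0) and 9.25% of TNNT2-zero cells (7.97 to 10.7) had 3 members or more. At D14 the shares were 58.4% (55.1 to 61.7) and 47.1% (44.7 to 49.4). At D21 they were 37.6% (34.0 to 41.3) and 11.6% (8.24 to 15.7). The difference was 29.2 percentage points at D8, 11.4 at D14 and 26.0 at D21, and the intervals of the 2 groups did not overlap on any day. The size of the difference moved with the depth and the gate, being 48.2, 21.8 and 45.1 points when cells were thinned to 8000 UMIs, 52.7 (D8) and 17.5 (D14) without thinning, and 11.5 at D21 with a gate of 1 TNNT2 UMI. Cells with none of the 9 were 3.17%, 1.34% and 5.49% of TNNT2-high cells and 44.0%, 14.5% and 38.9% of TNNT2-zero cells. As a background, 1.55% and 1.44% of cluster 7 cells at D8 and D14 and 0.327% of cluster 10 cells at D21 had 3 members or more.

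**Figure D4:**
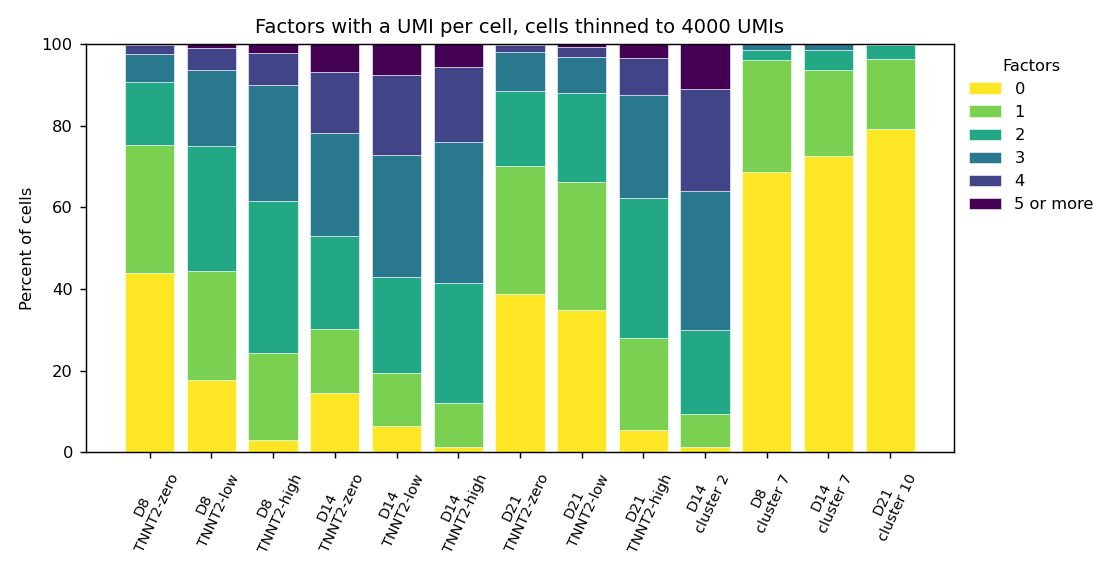
Percent of cells (y axis, stacked to 100) with 0, 1, 2, 3, 4 or 5 and more of the 9 factors after thinning to 4000 UMIs, by day and TNNT2 group, with D14 cluster 2 and the endodermal clusters 7 and 10 at the right. At D14 the TNNT2-zero bar (47.1% with 3 or more) comes near the TNNT2-high bar (58.4%), cluster 2 exceeds both with 70.0%, and the endodermal bars lie under 2%.

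Of the groups counted, cluster 2 of D14 had the highest share with 3 members or more, 70.0% (67.1 to 72.7), beside 61.0% (58.1 to 64.0) in CM-like and 59.5% (54.0 to 64.9) in fibroblast-like cells of that day. CM-like cells had 38.2% at D8 and 38.1% at D21. With endodermal and ectodermal clusters left out, the D14 difference between TNNT2-high and TNNT2-zero cells was 4.21 points. When a member needed 2 UMIs, the D14 difference turned over to -2.51 points, with 8.81% of high and 11.3% of zero cells, while the D8 and D21 differences were 2.42 and 0.202 points.

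Pairs of members were then compared with the product of their 2 shares, which is the share of cells that would hold both if they were unrelated at this depth. Of the pairs with a product of 10 cells or more, the median ratio of observed to product was 0.958 in CM-like cells of D8 (14 pairs), 0.998 at D14 (25 pairs) and 0.990 at D21 (22 pairs). Within CM-like cells, members were thus about as often together as their own shares give. NKX2-5 and MEF2C were found together in 688 of 1091 CM-like cells of D14, or 63.1% (60.1 to 65.9), beside a product of 63.6%. The lowest ratio of CM-like cells at D14 was that of TBX5 and HAND2, with 10 cells beside a product of 17.7 (ratio 0.564, observed share 0.917%, 0.440 to 1.68). At D21 the lowest was GATA5 and HAND2, with 6 cells beside 11.3, and at D8 NKX2-5 and HAND1, with 14 cells beside 20.3. The product lay inside the interval of the observed share for the last 2 pairs and for TBX5 and HAND2 (1.63%). In TNNT2-zero cells of D8, which mix many cell types, all 18 such pairs had a ratio above 1 and the median was 1.45, with GATA6 and HAND2 at 2.20 (52 cells beside a product of 23.7). In those of D14 the median was 1.22 with 19 of 21 pairs above 1, and in those of D21 it was 0.945 with 2 of 5.

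Among the partners of these factors, the 12 listed genes include coactivators, other MEF2 and T-box genes, and homeobox cofactors. In TNNT2-high against TNNT2-zero cells, 5 of 9 tested were 2-fold or more higher at D8 (6.63% of all genes), 7 of 11 at D14 (11.0%) and 8 of 11 at D21 (13.9%). ISL1 at D14 was the 1 gene lower on the 3 days, beside 5.79%, 8.23% and 12.4% of all genes. MYOCD was at 169 CPM in high and 27.1 CPM in zero cells at D8, and at 163 and 10.4 CPM at D14. In CM-like cells ISL1 had 71.9 (D8), 80.0 (D14) and 6.03 CPM (D21), lowest at D21 like MEF2C. TBX2, a repressor of chamber genes, was at 1.26, 40.0 and 49.8 CPM. ZFPM1, a GATA cofactor, was at 2.01, 31.7 and 7.40 CPM. The 9 listed target genes were higher with TNNT2 in 5 of 5 tested at D8 (6.63% of all genes), 6 of 6 at D14 (11.0%) and 5 of 6 at D21 (13.9%), where HOPX was lower (12.4%). The cells were split on TNNT2, itself a CM gene. Targets such as MYH6 are CM genes too, so this direction was largely given by the split. The same limit holds for partners such as MYOCD, a coactivator of muscle genes. In CM-like cells, MYH6 had 1090, 4082 and 8890 CPM in the order of the days, on which MEF2C stood at 609.8, 467 and 72.7 CPM.

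Of the neighbouring lncRNAs, HAND2-AS1 followed HAND2 most closely. Across the 25 groups by day and cluster, the Pearson correlation of log2 of CPM plus 10 was 0.97 for HAND2 and HAND2-AS1, the highest for HAND2 of the 5653 genes that reached 50 CPM in any group. HAND2-AS1 was at 202 CPM in cluster 2, 58.8 CPM in CM-like cells of D14 and 6.70 CPM in endodermal epithelium-like cells of D14. In TNNT2-high against TNNT2-zero cells it was at 46.0 and 116 CPM at D14 and at 60.0 and 20.2 CPM at D21, with the same change of direction as HAND2. GATA6 and GATA6-AS1 had a correlation of 0.83. In CM-like cells GATA6-AS1 had 157, 127 and 58.8 CPM in the order of the days, and was thus 2-fold or more lower at D21 while GATA6 was not. TBX5-AS1 and MEF2C-AS1 were under 10 CPM in each group by day and cluster. The groups share 3 libraries and their depth, and no source used here says whether the counting used the strand, so reads of a gene and its antisense partner may not be fully told apart.

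**Figure D5:**
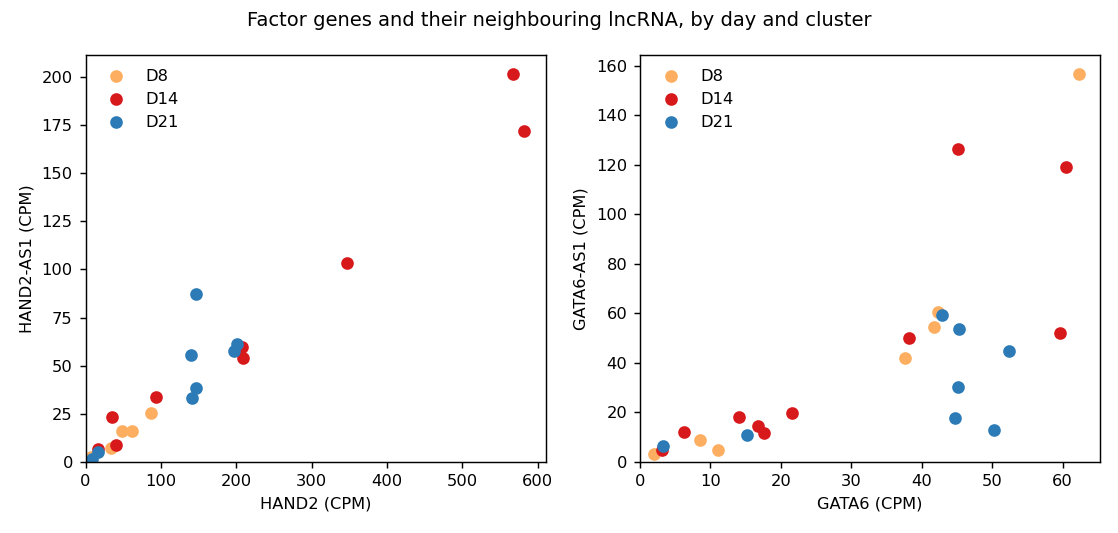
Level of HAND2-AS1 against HAND2 (left) and of GATA6-AS1 against GATA6 (right), both in CPM on linear axes, with 1 point for each of 25 groups by day and cluster, coloured by day. On the left both levels are highest in clusters 9 and 2 of D14 (582 and 568 CPM of HAND2). On the right, CM-like cluster 1 of D14 and cluster 5 of D21 have GATA6 at 45.2 and 42.9 CPM but GATA6-AS1 at 126 and 59.5 CPM.

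The genes most like each member over the same 25 groups were as follows, as a description only. For HAND1 they were HAND2 (0.85), DOK4 (0.85) and HAND2-AS1 (0.84), the only case with another member among the first 3. For NKX2-5 they were GSTM4, RASL10B and VAMP2 (0.90, 0.90 and 0.88), and HAND2 among the members (0.84). For TBX5 they were ITGB1BP2, S100A8 and MYO18B (0.96, 0.95 and 0.95), and for GATA4 they were MICAL2, SVIL and ZCCHC24 (0.90, 0.89 and 0.88). MEF2C had lower values with AAK1, ZEB1 and ARHGAP6 (0.83, 0.79 and 0.78), and its highest value with another member was 0.38, with GATA4. For GATA5 the first were ST6GALNAC4, SEPT6 and RUNX1T1 (0.82, 0.82 and 0.81), for GATA6 TSHZ2, TMX4 and FOXP1 (0.87, 0.85 and 0.84), and for TBX20, with few UMIs, RHOT1, MTFR1L and COQ10A (0.70, 0.68 and 0.67).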

How the data were processed

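Chambered cardiac organoids were dissociated and captured as droplets with 3′ tag chemistry, with 1 library per day and 3 in all. The authors deposited a merged table of UMI counts per gene and barcode. The submitters' processing notes name Cell Ranger, Seurat 3.2.1 and hg19, while whether counting used the strand is not given in the sources used here. Barcodes were kept if they had over 2000 and under 7500 genes and under 10% mitochondrial counts, 8188 of 17327, holding 30898727 to 50247286 UMIs per library. Cells were clustered with Seurat 5.3.0 in R 4.3.3 (log-normalised counts, 1983 variable genes after leaving out 17 listed genes, 20 components, resolution 0.8, no integration). A cluster was named where at least 3 markers of a type were 2-fold above the other cells of its day, with a lead of 2 markers. Scrublet, run in scanpy 1.11.5, marked 9 cells and so did not separate doublets. Counts of a group were summed and scaled to 1000000 UMIs. Genes had to have a UMI in 10 barcodes, and 10 CPM in 1 group to be compared. Cells were thinned to 4000 UMIs for the TNNT2 groups and for shares. A gene at 0 in a group was set to 3 counts. Intervals are exact (95%), cover counting error only, and narrow with depth. With 1 library per day nothing was tested and no p-value is given. Code was checked on simulated data.

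The named genes were the 9 members, the listed partners (12 genes), targets (9) and neighbouring lncRNAs (4 found), and the 3 genes most like each member. The members and lists were chosen with earlier results of these data known. Python 3.11.15, scipy 1.17.1, edgeR 4.0.16 (TMM factors) and DESeq2 1.42.0 (size factors) were used for alternatives in scaling, gate, thinning, mitochondrial limit, clustering resolution, doublets and dividing cells. Leaving out cluster 17, the top 5% of doublet scores, or endodermal and ectodermal clusters was added after seeing the data. Some items of the lists are not reported here by name.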

Additional observations from a re-analysis of the deposited data

Results flagged for a closer look

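HAND1 and HAND2 were singled out because their difference between TNNT2-high and TNNT2-zero cells pointed in different directions on different days. For HAND1 the log2 ratio of TNNT2-high to TNNT2-zero cells was -1.18 at D8 and -2.26 at D14 but 1.81 at D21. For HAND2 it was 1.11 at D8, -1.14 at D14 and 1.15 at D21. The differences between days were not tested, since each day is 1 library.

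The cell types without TNNT2 also differed between the days. At D14 the TNNT2-zero cells held 876 cells of unnamed clusters, among them cluster 2 with HAND1 at 402 CPM, while at D21 they held 180 fibroblast-like cells with HAND1 at 37.2 CPM over the class. Those of D21 also held cells of cluster 10, which had HAND1 at 2.26 and HAND2 at 8.25 CPM over the cluster. The part of this makeup as a whole in the change of direction was not tested, and the D21 ratios without cluster 10 are not given here.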

How the results depend on the processing

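No paired analysis was possible because each day has 1 library and the labels give no replicate numbers, and for the same reason no replicate could be left out. Of the comparisons of counts and shares under the alternatives, 142 stayed near their value, 25 moved and 1 reversed. The cause was not tested for any of them. In CM-like cells the number of members higher at D14 was 2 in place of 4 at resolution 1.2, and the number lower at D21 was 1 in place of 2 with TMM factors, with the median of ratios and with CMs chosen as TNNT2-high cells. With either scaling, NKX2-5 in CM-like cells and GATA4 over all cells also fell under 2-fold between D8 and D14. Over all cells, 2 members in place of 1 were higher at D21 with TMM factors and with the median of ratios. The number lower in TNNT2-high cells was 0 in place of 1 at D8 and 0 in place of 2 at D14 with a gate of 1 TNNT2 UMI. With a mitochondrial limit of 5% these numbers were 0 and 1. That at D14 was also 1 without thinning and when thinned to 8000 UMIs. At D21 without thinning, with 21 zero cells, 1 member was higher in place of 4, 2 were lower in place of 0, and TBX5 reversed to a log2 ratio of -0.18. Without endodermal and ectodermal clusters 3 members in place of 5 were higher at D8. The difference in cells with 3 members or more (29.2, 11.4 and 26.0 percentage points at D8, D14 and D21) was 20.9 at D8 and 11.5 at D21 with a gate of 1 UMI, 52.7 at D8 and 17.5 at D14 without thinning, and 48.2, 21.8 and 45.1 when thinned to 8000 UMIs. It was 2.42 at D8, -2.51 at D14 and 0.202 at D21 when a member needed 2 UMIs, and 4.21 at D14 without endodermal and ectodermal clusters. For single genes between days, 148 values stayed within counting error and 39 moved beyond it in CM-like cells. Over all cells, 55 stayed and 50 moved. Between TNNT2-high and TNNT2-zero cells, 137 stayed, 82 moved and 1 reversed. With a mitochondrial limit of 5% the D21 CM cluster had no name, so CM-like values of D21 could not be had. TBX20, with 166 UMIs in all, is limited by depth throughout.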
